A study of Mus musculus with 2 samples.

Results

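Transcripts of 36 genes that let cells bind matrix, platelets, endothelium and one another were compared between bone-marrow-derived dendritic cells of miR-155-/- mice treated with LPS (1 array) and those of wild type mice treated with LPS (1 array). The genes encode 23 integrin chains, the intercellular and vascular adhesion molecules Icam1, Icam2, Icam4 and Vcam1, the selectins Selp and Sele with their ligand Selplg, and Cd44, Alcam, Pecam1, Esam, F11r and Jam3. They were taken by symbol from the probe sets that the platform annotation assigns to 1 gene, which gave 79 probe sets for all 36 genes, out of 18193 genes and 45037 probe sets. Both mouse lines are labelled C57BL/6J. Marrow of each was grown for 7 days in 20 ng/ml GM-CSF and then moved to medium with 10 ng/ml lipopolysaccharide (LPS), a bacterial outer membrane molecule sensed by the receptor TLR4. No array of cells without LPS was analysed here, so the values describe LPS-treated cells only. The labels state neither the number of mice or cultures behind an array, nor the time in LPS, nor the knockout allele, and the growth protocol speaks of macrophages where the other labels speak of dendritic cells.

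Integrins are receptors made of 1 alpha and 1 beta chain, which join the actin cytoskeleton to matrix proteins or to ligands on other cells and are switched on from inside the cell by talin and kindlin. Leukocytes carry the beta2 family, in which Itgb2 pairs with Itgal, Itgam or Itgax, and the last of these, CD11c, is the surface marker by which mouse dendritic cells are usually sorted. Dendritic cells use integrins, their ligands and CD44 when they leave tissue after a bacterial signal and when they form contacts with T cells. miR-155 is a small RNA that inflammatory signals induce in myeloid cells, and it represses transcripts that pair with its seed.

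The sequence missing from the knockout cells is shown first because it defines the comparison. The mature guide strand, from RefSeq on build GRCm38.p6, lies at chr16:84714143-84714165 on the plus strand, within the noncoding transcript Mir155hg, and its seed, bases 2 to 8, is in capitals.
mmu-miR-155-5p: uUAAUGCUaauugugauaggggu

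The promoters of Itga1, Itgav, Itga4, Itgb1 and Alcam are printed because in these members 2 or more measured probe sets all lay on the same side after quantile normalization and the difference exceeded the error within the arrays; Itga3, which met this close to the lower limit of measurement, is left out. That of Itgam is set beside them as a textbook target of PU.1, the myeloid factor encoded by Spi1 and a reported target of miR-155; the Spi1 signal was 1056 on the knockout array, against 777 on the wild-type array. Each window runs from 250 bases before to 50 bases after the start of the gene, 5′ to 3′ on the gene's strand, from RefSeq on GRCm38.p6, and capitals mark the PU box GAGGAA read on either strand. The windows lie at chr13:115101915-115102214 (minus strand) for Itga1, chr2:83724147-83724446 (plus) for Itgav, chr2:79255176-79255475 (plus) for Itga4, chr8:128685404-128685703 (plus) for Itgb1, chr16:52453032-52453331 (minus) for Alcam and chr7:128062390-128062689 (plus) for Itgam.
Itga1: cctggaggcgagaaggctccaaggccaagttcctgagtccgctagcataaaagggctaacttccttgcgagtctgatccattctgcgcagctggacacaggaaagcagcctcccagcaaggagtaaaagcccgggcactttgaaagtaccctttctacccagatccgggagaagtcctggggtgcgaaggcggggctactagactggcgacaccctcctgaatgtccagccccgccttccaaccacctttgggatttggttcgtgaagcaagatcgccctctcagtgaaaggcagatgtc
Itgav: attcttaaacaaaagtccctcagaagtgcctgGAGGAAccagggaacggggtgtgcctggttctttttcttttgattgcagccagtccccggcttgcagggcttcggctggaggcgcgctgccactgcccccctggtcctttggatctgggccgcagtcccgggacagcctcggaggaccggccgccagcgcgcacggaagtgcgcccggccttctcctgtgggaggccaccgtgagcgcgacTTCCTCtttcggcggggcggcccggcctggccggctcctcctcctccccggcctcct
Itga4: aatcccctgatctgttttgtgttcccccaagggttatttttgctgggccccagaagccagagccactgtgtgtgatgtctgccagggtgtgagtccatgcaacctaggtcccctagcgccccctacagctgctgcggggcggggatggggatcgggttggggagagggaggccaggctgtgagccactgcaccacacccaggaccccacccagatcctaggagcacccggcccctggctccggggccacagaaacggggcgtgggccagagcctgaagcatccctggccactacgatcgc
Itgb1: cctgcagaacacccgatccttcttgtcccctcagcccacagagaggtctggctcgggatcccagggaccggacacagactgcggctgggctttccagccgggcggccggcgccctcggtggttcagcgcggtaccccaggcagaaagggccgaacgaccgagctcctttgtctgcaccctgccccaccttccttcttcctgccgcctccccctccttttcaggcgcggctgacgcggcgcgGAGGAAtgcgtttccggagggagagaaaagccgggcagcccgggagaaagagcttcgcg
Alcam: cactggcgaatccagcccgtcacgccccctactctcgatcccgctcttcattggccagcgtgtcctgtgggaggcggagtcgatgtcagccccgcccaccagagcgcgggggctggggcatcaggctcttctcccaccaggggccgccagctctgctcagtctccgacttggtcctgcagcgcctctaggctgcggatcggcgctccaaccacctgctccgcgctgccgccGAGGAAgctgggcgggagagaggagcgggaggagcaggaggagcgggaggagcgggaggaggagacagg
Itgam: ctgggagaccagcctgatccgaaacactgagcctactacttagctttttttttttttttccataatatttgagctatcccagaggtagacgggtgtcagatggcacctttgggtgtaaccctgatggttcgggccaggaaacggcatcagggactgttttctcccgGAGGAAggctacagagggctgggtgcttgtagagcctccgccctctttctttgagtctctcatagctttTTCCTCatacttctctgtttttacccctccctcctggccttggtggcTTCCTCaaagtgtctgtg

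The Itgam window held 3 PU boxes, which began 84 and 15 bases before the start and 32 bases after it. The Itgav window held 2, beginning 218 and 7 bases before the start, the Itgb1 window 1, at 9 bases before it, and the Alcam window 1, at 19 bases before it. Neither the Itga1 nor the Itga4 window held these letters. A promoter window was found for 23 of the 36 genes (25 windows), of which 12 held a PU box, against 28.3% of 32851 windows of all genes. The AP-1 site TGANTCA, searched on both strands, was in 6 of the 25 member windows and in 7.81% of all windows, and the longer kappa B site, also on both strands, was in 1 of 25 and in 8.46%. No overlap between different motifs was sought, and a match describes these letters only.

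The authors deposited 1 linear signal intensity per probe set and array, and whether the arrays share a common scale is not stated. The median intensity was 78.3 on the knockout and 58.4 on the wild-type array, and the bacterial and phage hybridisation controls, 18 probe sets, differed at their median by 0.33 on the log2 scale (knockout minus wild type). Signals were therefore quantile normalized, so each difference below is relative to the bulk of all genes, and on the deposited values the median measured gene was 0.54 higher in the knockout. A gene was called measured where its probe set with the highest mean signal exceeded the median of all normalized values, an intensity of 67.6 (the floor), on at least 1 array; this held for 11878 genes, and 10355 exceeded the floor on both. Each genotype has 1 array, so no spread between animals or cultures can be had and no test was possible. The only error these arrays hold is how far probe sets for 1 gene disagree, with an SD of 0.29 on the log2 scale over 11653 probe sets of 4410 genes. The host transcript Mir155hg had a signal of 159 on the knockout and 1136 on the wild-type array, 7.13-fold lower. Levels of different genes cannot be set against each other, since each probe set has its own affinity.

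The median adhesion transcript lay close to the median gene, and a few single chains lay further from it. Of the 36 genes, 25 were measured, 21 of them on both arrays, and these had a median log2 difference (knockout minus wild type) of 0.02, against 0.01 over all measured genes. Itga1, the collagen-binding alpha1 chain, was 1.71-fold higher on the knockout array. The alphav chain Itgav was 1.61-fold, the alpha4 chain Itga4 1.45-fold, the adhesion molecule gene Alcam 1.35-fold and the beta1 chain Itgb1 1.32-fold lower, relative to the bulk of genes. Differences at least as low were found in 2.58% of measured genes for Itgav, 5.1% for Itga4, 8.17% for Alcam and 9.67% for Itgb1. No member differed by 2-fold, a size reached upwards by 0.572% and downwards by 0.615% of measured genes. However, Itga1 passed it with scaling on hybridisation controls (1.04) and on the deposited values (1.36), where the share of all genes was not counted. At 1.5-fold, 1 of 25 was higher (Itga1) and 1 was lower (Itgav), against 4.57% and 4.10% of measured genes, so these shares lay near the background; Itgav was under 1.5-fold with centring on the median (-0.51), scaling on hybridisation controls (-0.41), the deposited values (-0.08), the mean of its probe sets (-0.27) and its second probe set (-0.56).

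By sign, 14 of the 25 measured genes were higher and 11 lower on the knockout array, a split that was 18 to 7 with scaling on hybridisation controls and 24 to 2 on the deposited values. The difference exceeded the probe set SD of 0.29 for 11 of them, 4 higher (Itga1, Itgb8, Itga6 and Itgax) and 7 lower (Itgav, Itga4, Alcam, Itgb1, Icam2, Itga3 and Itga2), which is 44% of the measured members beside 32.7% of all measured genes. The other 14 differed by no more than that SD, which does not show that they were equal. In whole cultures, fewer cells of a type and less RNA per cell cannot be told apart.

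**Figure D1:**
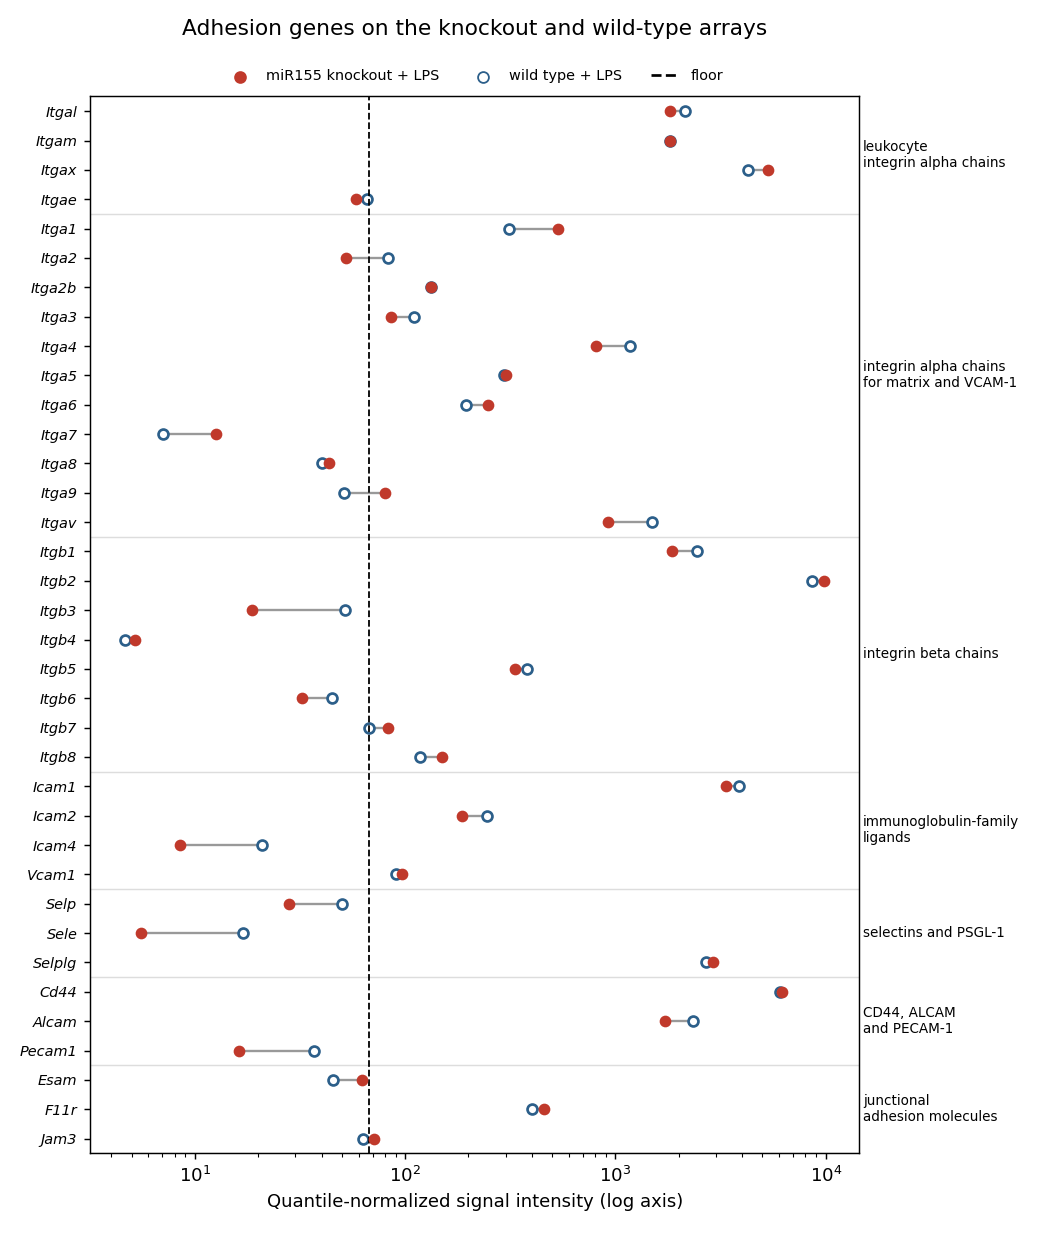
Quantile-normalized signal intensity (log axis) of the representing probe set of each of the 36 adhesion genes on the miR155 knockout + LPS array (filled) and the wild type + LPS array (open), grouped by role, with the floor of 67.6 dashed. Most pairs lie close together; Itga1 is higher and Itgav and Itga4 are lower in the knockout, and 11 genes lie below the floor on both arrays.

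The beta2 integrins, through which leukocytes bind ICAMs and complement fragments, were carried by strong signals on both arrays. Itgb2, the shared beta chain, had a signal of 9852 on the knockout array, against 8580 on the wild-type array, a difference of 0.20. Itgax (CD11c) had 5331 on the knockout and 4290 on the wild-type array, 1.24-fold higher and just above the probe set SD. Both arrays thus held this usual sorting marker of dendritic cells at a high signal, read by 1 probe set. Its knockout value was the higher one under each of 5 scalings, which rescale the same arrays and are no separate support.

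Itgam, the CD11b chain shared by myeloid cells, had nearly equal signals of 1826 on the knockout and 1825 on the wild-type array. Itgal, the alpha chain of LFA-1, which binds ICAM-1 at contacts with T cells, had 1814 on the knockout and 2135 on the wild-type array (difference -0.24), with 2 of 2 probe sets lower, the other by 0.05. The alpha chains that share Itgb2 therefore had differences on both sides of 0 after quantile normalization, within a range of -0.24 to 0.31. On the deposited values all of them, and Itgb2, were higher in the knockout, by 0.36 for Itgal, 0.59 for Itgam, 0.83 for Itgax and 0.59 for Itgb2, against the shift of 0.54 of the median gene. Itgae, the alphaE (CD103) chain of a dendritic cell and T cell subset that binds E-cadherin, was below the floor on both arrays, at 58.2 in knockout and 65.8 in wild type.

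Among the alpha chains that bind matrix or VCAM-1, the differences ran furthest apart. Itga1 had a signal of 531.6 on the knockout array, against 310.4 on the wild-type array. Only 1.85% of measured genes had a difference as high as its 0.78. Its second probe set was dimmer and higher too, at 81.7 in knockout and 52.8 in wild type, at least 1.21-fold since the wild-type value lay under the floor.

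Itgav, whose product joins several beta chains in receptors for vitronectin and for latent TGF-beta, lay at the other end. Its signal was 924.5 on the knockout and 1492 on the wild-type array, a difference of -0.69 that 2.58% of measured genes reached. The second measured probe set, at 73.5 in knockout and 108.4 in wild type, differed by -0.56, and the remaining 3 of its 5 probe sets were below the floor on both arrays.

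Itga4 pairs with Itgb1 in VLA-4, the leukocyte receptor for VCAM-1 and fibronectin, or with Itgb7 in the gut-homing receptor for MAdCAM-1. The representing probe set had 804.1 on the knockout and 1169 on the wild-type array (difference -0.54). A dimmer probe set gave 122.7 in knockout against 252.7 in wild type, 2.06-fold lower, another gave 148.0 in knockout against 203.4 in wild type, and the dimmest 62.3 in knockout against 111.4 in wild type. All 4 measured probe sets were thus lower, by between 0.46 and 1.04 on the log2 scale, and the fifth was below the floor on both arrays.

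The remaining chains of this group were dimmer or differed less. Itga5, the alpha chain of the fibronectin receptor, had 302.4 on the knockout and 296.4 on the wild-type array. Itga6, a laminin receptor chain, had 247.1 on the knockout and 194.7 on the wild-type array (0.34), but its second probe set gave 108.1 in knockout and 116.4 in wild type, so its direction was not shared. Itga3, another laminin receptor chain, had 85.6 on the knockout and 110.4 on the wild-type array (-0.37) with 2 of 2 measured probe sets lower.

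Itga2b, the platelet alpha chain CD41, was level at 132.0 in knockout and 132.8 in wild type. Itga2, a collagen receptor chain, exceeded the floor only in wild type (52.5 in knockout, 83.1 in wild type), at least 1.23-fold lower, and Itga9 only in the knockout (80.3 in knockout, 51.3 in wild type), at least 1.19-fold higher. Itga7 and Itga8 were below the floor on both arrays. The 9 measured chains of this group, 4 higher and 5 lower, had a median of -0.01.

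Of the beta chains, Itgb1 had the difference furthest below 0. It is the partner of Itga1, Itga4, Itga5, Itga6 and, among others, Itgav. Its signal was 1850 on the knockout and 2436 on the wild-type array (-0.40), its second probe set gave 1832 in knockout and 2318 in wild type, and the dimmest 219.2 in knockout and 247.3 in wild type. All 3 measured probe sets were lower, by 0.17 to 0.40, while the other 3 lay below the floor on both arrays. After quantile normalization, both chains of VLA-4 were thus lower on the knockout array. The alpha and beta chains of the collagen receptor made of Itga1 and Itgb1 differed in opposite directions there. On the deposited values Itga4 (0.07), Itgb1 (0.19) and Itga1 (1.36) were all higher in the knockout.

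Itgb5 and Itgb8, partners of Itgav other than Itgb1, showed no common direction after quantile normalization. Itgb5, the beta chain of a vitronectin receptor, had 333.0 on the knockout and 379.0 on the wild-type array (-0.19), and its 4 probe sets spread from -0.90 to 0.01. Itgb8, the beta chain of a receptor by which dendritic cells can activate TGF-beta, had 150.4 on the knockout and 117.9 on the wild-type array (0.35), from its single probe set. Itgb7, a partner of Itga4, exceeded the floor only in the knockout (82.6 in knockout, 66.9 in wild type), at least 1.22-fold higher. Itgb3, Itgb4 and Itgb6 were below the floor on both arrays. The 5 measured beta chains had a median of 0.20, with 3 higher and 2 lower, and this median was -0.19 with the floor at the 75th percentile and -0.23 at second probe sets.

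Icam1, the LFA-1 ligand that LPS and TNF are known to induce through NF-kB, was bright on both arrays, with 3361 on the knockout and 3878 on the wild-type array (-0.21, within the probe set SD). Icam2, a second LFA-1 ligand found on resting leukocytes and endothelium, had 187.3 on the knockout and 246.2 on the wild-type array (-0.39), from 1 probe set. Vcam1, the VLA-4 ligand, was near the floor, with 96.7 on the knockout and 90.9 on the wild-type array. Its 3 probe sets disagreed, from -0.42 to 0.21. Icam4, an erythroid ligand, was below the floor on both arrays.

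The selectins Selp and Sele, which endothelium and platelets display to catch rolling leukocytes, were below the floor on both arrays. Their ligand on leukocytes, PSGL-1, encoded by Selplg, had 2913 on the knockout and 2699 on the wild-type array (0.11). Cd44, the hyaluronan receptor, was level at its representing probe set, with 6190 on the knockout and 6093 on the wild-type array. Another probe set gave the same picture (0.06), but the last measured one, with 956.9 on the knockout and 1437 on the wild-type array, was lower by 0.59 on the log2 scale. Which Cd44 transcripts each probe set reads was not tested.

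Alcam, the CD6 ligand that strengthens the contact of dendritic cells with T cells, had 1720 on the knockout and 2326 on the wild-type array at the representing probe set (-0.44). The other 4 probe sets gave 548.2 in knockout against 866.2 in wild type, 552.5 in knockout against 813.6 in wild type, 243.8 in knockout against 334.1 in wild type, and 156.0 in knockout against 270.0 in wild type. All 5 were lower, by 0.44 to 0.79, so the representing probe set showed the smallest difference of the 5. Alcam and Itgb5 are the 2 members on chromosome 16, which also holds Mir155hg. Pecam1, an endothelial and platelet molecule, was below the floor on both arrays.

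Of the junctional adhesion molecules, F11r (JAM-A) had 455.8 on the knockout and 402.1 on the wild-type array (0.18), and its second probe set, at 88.9 in knockout and 104.7 in wild type, differed by -0.24. Jam3 lay at the floor (71.3 in knockout, 62.9 in wild type) and its 2 probe sets disagreed. Esam, found at endothelial and platelet junctions, was below the floor on both arrays after normalization. Values were therefore too low or too discordant to give these genes a direction.

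**Figure D2:**
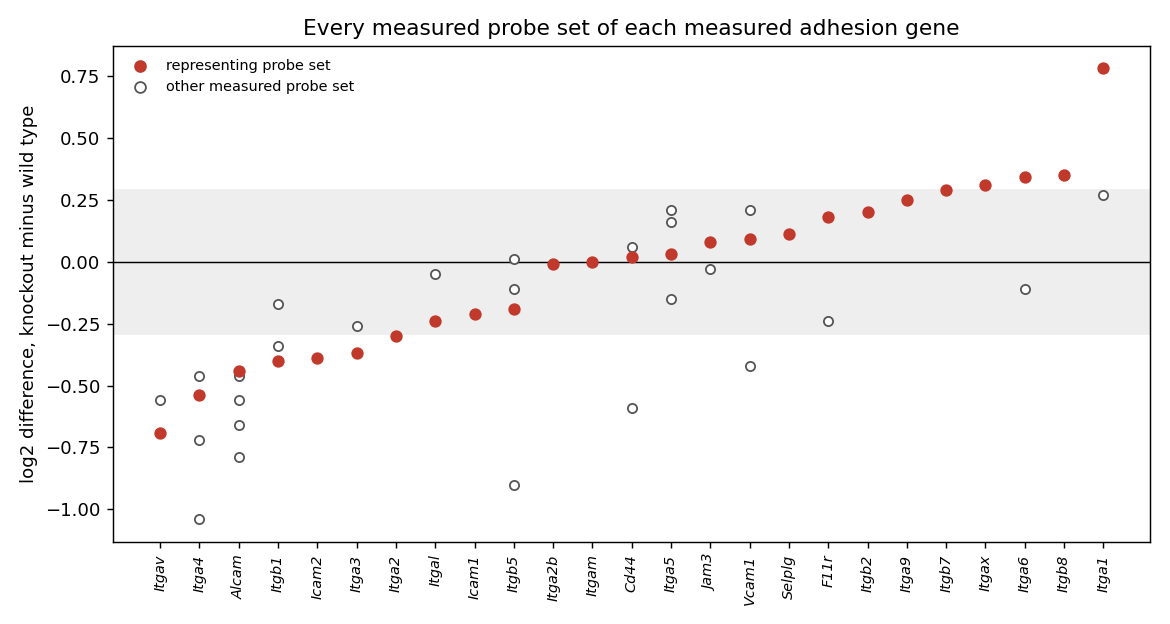
Log2 difference, knockout minus wild type, of every measured probe set of the 25 measured adhesion genes; filled points are the representing probe sets, open points the others, and the grey band is the probe set SD of 0.29 on either side of 0. All 5 Alcam and all 4 Itga4 probe sets lie below the band, both Itga1 points lie above 0, and those of Cd44, Itgb5 and Vcam1 are spread.

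Agreement between probe sets was counted over all genes as well, a rule added after the values were seen. Of the 14 members with 2 or more measured probe sets, 6 had every one lower (Itgal, Itga3, Itga4, Itgav, Itgb1 and Alcam) and 1 every one higher (Itga1), where all genes with that many had every one lower in 22.0% and every one higher in 24.3% of cases. Of the 7 members with 3 or more, 3 had every one lower (Itga4, Itgb1 and Alcam) and 0 every one higher, against 14.9% and 15.3% of all such genes. A minimum of 4 was counted before that of 3, and gave 2 of 4 members with every one lower (Itga4 and Alcam) and 0 with every one higher, against 11% and 10.2% of genes. The agreement depends on the scaling: on the deposited values, of the 13 members with 2 or more measured probe sets 0 had every one lower and 7 every one higher, against 0.929% and 83.4% of genes. There Itgb1 had 3 of 3 higher, Alcam 3 of 5 and Itga4 2 of 4. With hybridisation controls, 4 of 13 had every one lower and 4 every one higher, against 6.52% and 53.2% of genes. Probe sets of a gene share its RNA on the same pair of arrays, so their agreement is no replicate of the comparison. Larger differences were also less common among bright genes (3 classes of equal size). A difference of 1.5-fold in either direction was reached by 3.71% of genes of high, 6.35% of middle and 12.9% of low mean signal. Itgav, Itga4, Itgb1 and Alcam lie in the high class, but of these only Itgav reached 1.5-fold. Itga1, which reached it too, lies in the middle class.

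The direction of the lower genes depends on the scale between the arrays. On the deposited values, Itga4 (996.3 in knockout, 948.1 in wild type), Itgb1 (2272 in knockout, 1985 in wild type) and Alcam (2108 in knockout, 1890 in wild type) were higher in the knockout by 0.07, 0.19 and 0.16, and only Itgav stayed lower (1140 in knockout, 1209 in wild type, -0.08). Minus that of the median gene, the difference over the 5 scalings was -0.70 to -0.62 for Itgav and -0.55 to -0.47 for Itga4. It was -0.45 to -0.38 for Alcam and -0.41 to -0.34 for Itgb1. Itga1 (655.2 in knockout, 254.5 in wild type on the deposited values) lay above the median gene by 0.76 to 0.83. The deposited values, median centring and hybridisation controls differ only by a constant shift between the arrays. Such a shift moves the median gene too, so these positions are nearly fixed among them and are no separate support.

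**Figure D3:**
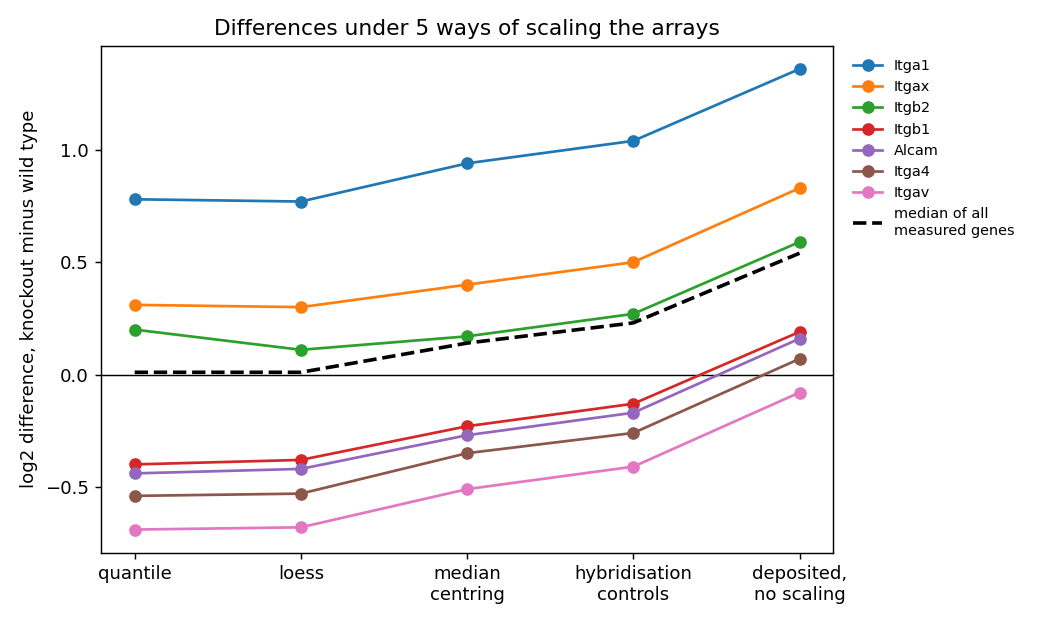
Log2 difference, knockout minus wild type, of 7 adhesion genes (points joined by lines) and the median of all measured genes (dashed) under 5 scalings of the arrays. Every scaling moves the lines with the dashed one, so that Itga1 stays above and Itgav, Itga4, Alcam and Itgb1 stay below it, while the last 3 pass 0 on the deposited values.

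Other genes of the adhesion machinery were described from 7 lists. Of 121 listed names, 109 were found on the array and 86 measured: 43 were higher, 43 lower, and the median difference was 0.02. At 1.5-fold, 6 of the 86 were higher and 3 lower, beside the 4.57% and 4.10% of all measured genes. The activators and adaptors that switch integrins on showed no common shift: 5 of 16 measured genes were higher, 11 were lower, and their median was -0.04. Tln1 (talin) had 2137 on the knockout and 1945 on the wild-type array, with 2 of its 3 probe sets lower (-0.31 to 0.14). The GTPase gene Rap1a had 4186 in knockout and 3978 in wild type, with 1 of 2 lower (-0.10 to 0.07). Cyth1, a cytohesin that binds the beta2 tail, had 1110 in knockout and 1599 in wild type (-0.53, with 2 of 2 probe sets lower). Rasgrp2, a Rap1 activator, exceeded the floor only in wild type (20.5 in knockout, 100.6 in wild type).

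Transcripts of focal adhesion proteins had a median of 0.12, and 11 of 18 were higher. Zyx (zyxin), an actin regulator at adhesion sites, had 5196 on the knockout and 3119 on the wild-type array, 1.67-fold higher, although its other probe set differed by 0.17. Tns1 (tensin) had 173.9 in knockout and 102.7 in wild type, with its 2 probe sets on opposite sides. Crkl (-0.28) and Vasp (-0.17) had the lowest differences of the list. Of 12 signalling kinases and GTPases 8 were higher, with a median of 0.08, from -0.26 for Src and Rac2 to 0.14 for Cdc42 and 0.49 for Fgr, a Src-family kinase of myeloid cells (898.8 in knockout, 642.2 in wild type, with 2 of 2 probe sets higher).

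Membrane partners of integrins had a median of -0.23, and 8 of 10 were lower, although on the deposited values their median was 0.32, under the shift of 0.54. The tetraspanin gene Cd81 had 1858 on the knockout and 2786 on the wild-type array (-0.58) and Bsg (basigin) 1036 in knockout and 1267 in wild type. The tetraspanin gene Cd151, whose product binds laminin-receptor integrins, went against the list, with 972.7 on the knockout and 565.0 on the wild-type array (1.72-fold higher). All 5 of its probe sets were higher, by 0.48 to 0.78. Tspan32 (0.39) was the only other one above 0.

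Matrix ligands were measured for 8 of 15 genes, 5 of them higher, with a median of 0.14. Thbs1 (thrombospondin 1), which binds CD47 and integrins, had 5408 on the knockout and 8507 on the wild-type array (1.57-fold lower), with 2 of 2 probe sets lower. Lama5, a laminin chain, exceeded the floor only in wild type, at least 1.82-fold lower. Mfge8, a bridge between dying cells and alphav integrins, had 958.5 in knockout and 772.1 in wild type (0.31) and Fn1 (fibronectin) 350.5 in knockout and 307.8 in wild type.

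Of 13 other measured adhesion receptors 6 were higher, with a median of -0.03. Jam2, a gene neighbouring the deleted locus, was the only gene in the 7 lists to reach 2-fold, at 54.7 in knockout and 138.3 in wild type, at least 2.05-fold lower. Siglec1, a sialic acid receptor, was lower (69.0 in knockout, 98.4 in wild type). Itgb2l, a gene named for its likeness to Itgb2, had 165.5 in knockout and 86.9 in wild type (0.93), but with 1 of 2 probe sets lower. Cd99l2, a leukocyte adhesion protein gene, had 228.9 in knockout and 127.1 in wild type (0.85), with 4 of 4 probe sets higher.

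Transcripts of enzymes that build selectin ligands had a median of 0.09, and 6 of 9 were higher. The fucosyltransferase gene Fut4 had 210.1 on the knockout and 138.5 on the wild-type array (1.52-fold higher) and the branching enzyme gene Gcnt1 171.3 in knockout and 136.6 in wild type, with 2 of 2 probe sets higher. The sialyltransferase genes St3gal4 (152.8 in knockout, 200.1 in wild type) and St3gal3 (427.9 in knockout, 492.8 in wild type) were lower.

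**Figure D4:**
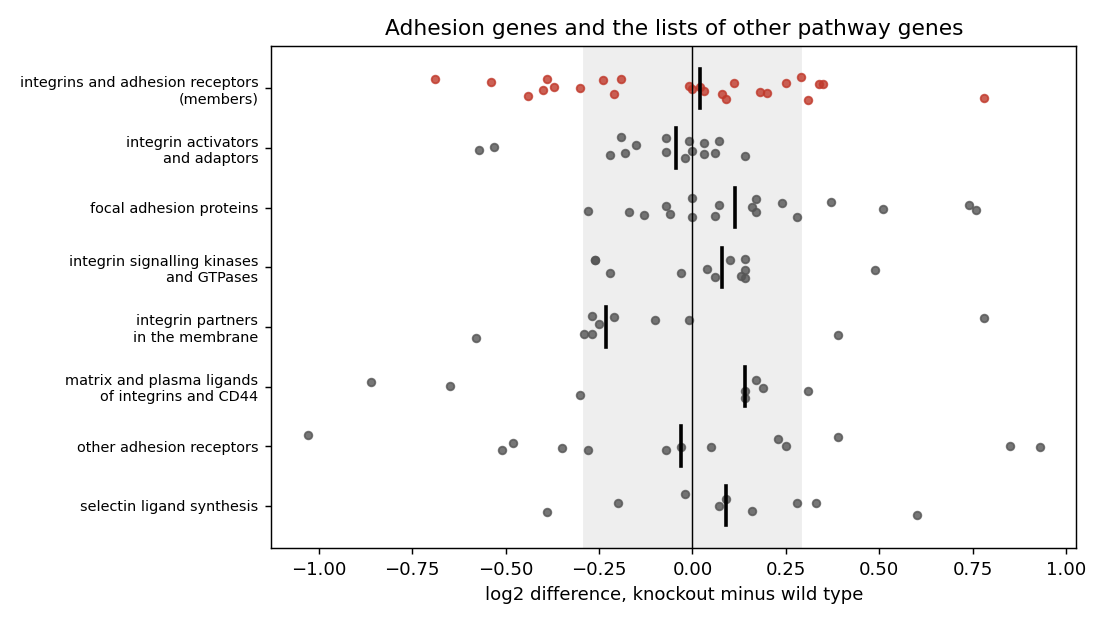
Log2 difference, knockout minus wild type, of each measured gene of the adhesion set (top, red) and of the 7 lists of other adhesion genes (grey); vertical bars are list medians and the grey band is the probe set SD of 0.29. Medians lie between -0.23 and 0.14, and single genes reach from -1.03 (Jam2, a bound) to 0.93 (Itgb2l).

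The cultures were also read for the cell types that carry these molecules. Dendritic cell markers were measured for 11 of 12 genes on the array, 8 of them lower, with a summed signal of 39033 on the knockout and 42303 on the wild-type array (values under the floor set to it in all these sums); Ccr7 (-0.55) and Zbtb46 (-0.43) were lowest, Flt3 (at least 1.31-fold, above the floor only in the knockout) and Cd209a (0.40) highest, and Xcr1 was below the floor on both. Macrophage and monocyte markers were higher in 8 of 10 genes (summed 47209 in knockout, 43418 in wild type). Mrc1 was 2.08-fold and Ccr2 1.78-fold higher (3 of 4 measured Ccr2 probe sets higher, from -0.48 to 0.84). Fcgr1 (-0.24) and Lyz2 (-0.10) were lowest. Granulocyte markers were lower in 8 of 11, from Ltf (at least 1.65-fold lower) and Prtn3 (-0.56) to Mmp8 (0.37) and S100a8 (0.43). Their sum was the higher one in the knockout (14168 in knockout, 12088 in wild type). The bright S100a8 (6093 in knockout, 4517 in wild type) and Mmp8 (4845 in knockout, 3736 in wild type) weigh most in it. All these sums follow their brightest probe sets.

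Basophil and mast cell markers were below wild type in 6 of 6 genes (summed 1853 in knockout, 3317 in wild type). Mcpt8 was at least 2.68-fold and Cpa3 at least 2.21-fold lower, Kit (-0.05) was closest to 0, and Fcer1a was below the floor on both. Ms4a2 exceeded the floor only in wild type (14.5 in knockout, 73.9 in wild type), so its difference is a lower bound. B and plasma cell markers were lower in 5 of 5 (summed 437.7 in knockout, 1621 in wild type), with Ighm 5.16-fold (5 of its 8 measured probe sets lower, from -3.73 to 0.50), Jchain 4.71-fold and Mzb1 at least 3.75-fold lower, Cd79b and Ms4a1 above the floor only in wild type, and Cd79a and Pax5 below the floor on both. These types also carry VLA-4, and the part of both lists in the lower Itga4 and Itgb1 signals was not tested. Of the T and NK markers 3 of 8 were measured (summed 371.9 in knockout, 474.7 in wild type), with Thy1 2.17-fold lower, Cd8a at 0.24 and Cd4 above the floor only in the knockout; Cd3e, Cd3g, Nkg7 and Ncr1 were below the floor on both.

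Platelet markers were measured for 8 of 9 genes (summed 10257 in knockout, 9003 in wild type), 4 higher and 4 lower. Pf4, a platelet chemokine gene, had 8580 in knockout and 7588 in wild type, and macrophages are also known to express it; Ppbp (0.63) and Treml1 (above the floor only in the knockout) were highest, and Gp1bb and Gp9, above the floor only in wild type, lowest. Endothelial markers were measured for 4 of 10 genes (summed 472.1 in knockout, 440.4 in wild type): Cdh5, Tek, Tie1 and Emcn were below the floor on both arrays together with Sele and Esam, Kdr exceeded it only in wild type, Egfl7 and Robo4 only in the knockout, and Vwf differed by 0.14. Stromal markers were measured for 7 of 10 genes (summed 1313 in knockout, 1407 in wild type), between Lum (at least 1.37-fold lower) and Col1a2 (-0.29) and Pdgfrb (0.11) and Col1a1 (above the floor only in the knockout). Epithelial markers were measured for 3 of 7 (summed 336.4 in knockout, 355.3 in wild type), Epcam (-0.10), Cdh1 (-0.07) and Krt8 (above the floor only in wild type), with Itgb4 and Itgb6 below the floor.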

How the data were processed

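Biotin-labelled cRNA from 6 ug of total RNA was hybridised to 1 Affymetrix array per genotype, per the labels' protocols. The authors deposited linear signal intensities for 45101 probe sets, per the file headers and values. How the signals were summarised or scaled, and detection calls, are not stated there. The 64 control probe sets were left out, log2 intensities were quantile normalized, and values under the median of all normalized values were set to it. Gene names came from the platform annotation, updated by gene identifier: 34945 probe sets named 1 gene, 932 several and 9160 none here. A gene was represented by its probe set of highest mean signal. A difference with 1 array at or below the floor is a lower bound.

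The number of arrays limits the precision; no p-value was computed. Called genes are those past 1.5-fold or 2-fold. Every member is named; of other lists, genes past 2-fold and the 2 highest and 2 lowest. The members and lists were chosen with earlier results of these data known. The calculation recovered known changes in simulated arrays. All of these changes were larger than any difference of a measured member after quantile normalization with the floor. Recovery of smaller differences was not tested. Motifs were counted in RefSeq windows of GRCm38.p6. The 9 alternatives covered scaling, floor and choice of probe set. Python 3.11.15, pandas 2.3.3, numpy 2.4.6 and statsmodels 0.14.6 were used.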

Additional observations from a re-analysis of the deposited data

How the results depend on the processing

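No paired analysis was possible because each genotype has 1 array. The scale between arrays matters most. On the deposited values, 24 measured members were higher and 2 lower (14 and 11 after quantile normalization), with 1 at least 2-fold higher. At 1.5-fold, 9 were higher and 0 lower there, against 43.5% and 0.498% of all measured genes. The member median was then 0.49, and the medians were 0.59 for leukocyte alpha chains, 0.47 for the other alpha chains, 0.52 for beta chains and 0.34 for immunoglobulin-family ligands, under a shift of 0.54 of the median gene. Of the members lower by more than the probe set SD after quantile normalization, Itga3 (0.11), Itga4 (0.07), Itgb1 (0.19), Icam2 (0.16) and Alcam (0.16) changed sign. So did Itgal (0.36), Itgb5 (0.39), Icam1 (0.34) and Itga2b (0.51), which had been lower within that SD. With hybridisation controls, 18 were higher and 7 lower, and 1 (Itga1) reached 2-fold higher. The share of all genes at 2-fold was not counted there or on the deposited values. With hybridisation controls 0 were 1.5-fold lower, against 1.96% of genes. With median centring 0 were 1.5-fold lower too, against 2.91% of genes.

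Without a floor, 18 of 36 were higher and 18 lower. At 1.5-fold, 3 were higher and 7 lower, against 13.7% and 13.5% of all genes without a floor. The 4 that were at least 2-fold lower (Itgb3, Icam4, Sele and Pecam1) all had signals below the main floor on both arrays. The share of all genes at 2-fold was not counted for this setting or for any other of the 9 alternatives. With the floor at the 75th percentile, 9 of 17 measured members were higher and 8 lower, and the beta chain median was -0.19. With averaged probe sets, 9 of 22 were higher and 13 lower. Without probe sets of suffix x, s or a, 2 were at least 1.5-fold lower, against 4.37% of genes. At second probe sets, 3 of 14 were higher and 11 lower, with 1 at least 2-fold lower. At 1.5-fold, 0 were higher and 2 lower, against 5% and 4.96% of genes. The medians there were -0.23 for beta chains and 0.21 for immunoglobulin-family ligands, and Itga6 changed sign (-0.11). Beyond the shift or the change of genes and probe sets that these settings make, the cause was not tested. Signals near the floor limit Itga2, Itga9, Itgb7, Vcam1 and Jam3.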

Other observations

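Probe sets of the same gene differed in size or sign for Cd44, Itgb5 and Itgav, among other members. Of the 3 measured Cd44 probe sets, 2 differed by 0.02 and 0.06 and the last by -0.59, while 1 more lay below the floor on both arrays (-1.27 without a floor); the mean over all 4 without a floor was -0.44. Of the 4 Itgb5 probe sets, 3 lay between -0.19 and 0.01 and the last at -0.90 (102.3 on the knockout and 190.5 on the wild-type array), which represents the gene when probe sets of suffix x, s or a are left out. For Itgav, averaging all 5 probe sets gave -0.27 instead of -0.69; the 3 that lay below the floor on both arrays differed by 0.73, -0.58 and -0.26 without a floor. Which transcripts these probe sets read was not tested.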
